A study of Mus musculus with 93 samples.

Results

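Eyecups of young wild-type mice were compared with neural retinas of the same genotype and age, and the genes that differed are described by cell type and function. The comparison held 14 of the 93 libraries of the series, 6 labelled posterior eyecup and 8 labelled neural retina, chosen by their titles. The mice of both groups were female, untreated, labelled Wt and 3 months old. The other libraries were of 9 and 17 months and of mice labelled Efemp1ki/ki, homozygous for a knock-in allele of Efemp1, which encodes a fibulin of the extracellular matrix. The series describes the eyecup as the eye from which lens and retina were removed, a description that leaves the cornea in place. The labels do not say whether libraries came from separate animals, so p-values measure the spread between these samples, which may be technical.

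The neural retina senses light. Rods and cones catch it with an opsin coupled to a G protein and a phosphodiesterase, bipolar cells pass the signal inward, amacrine and horizontal cells shape it, ganglion cells send it to the brain, and Mueller glia support them all. Behind the retina lie the pigment epithelium, which recycles the visual chromophore, the vessels and melanocytes of the choroid, and the collagen wall of the sclera.

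Library totals ran from 17092917 to 27723647 estimated counts (median 20490718) in the eyecups and from 12112683 to 25931124 (median 17538210) in the retinas. Levels are given as CPM, counts relative to the library total, after scaling by the trimmed mean of M values (TMM). Differences are log2 fold changes of eyecup over retina with an approximate standard error (SE), so that negative values are higher in retina. The SE is the size of the log2 fold change divided by the square root of the F statistic of the test named next. It may be too small for genes with very few reads in a tissue. A gene was called at an adjusted p under 0.05 (edgeR's quasi-likelihood test, Benjamini-Hochberg over 17367 genes), and called at least 4-fold when the same threshold was met against a log2 fold change of 2. Markers of rods and pigment epithelium fitted the labels retina and eyecup. Gnat1, the alpha subunit of rod transducin, was at 10780 CPM or more in every retina. Rpe65, the isomerase of pigment epithelium, was at 132 CPM or more in every eyecup. Corneal epithelium genes, described below, were also abundant in every eyecup, so the word posterior in the label was not borne out. Retina library 7 held more corneal transcripts than the other retinas, and eyecup library 3 fewer retinal transcripts than the other eyecups. Both were kept.

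Most genes differed between the tissues. Of 17367 genes, 15507 were called (89.3%), 7827 higher in eyecup (45.1%) and 7680 higher in retina (44.2%), so that a call alone said little about a gene. At least 4-fold differences were called for 4521 genes (26%), of which 2885 were higher in eyecup (16.6%) and 1636 higher in retina (9.42%). The ranges of the 2 groups did not overlap for 13203 genes (76%). The split of calls depended on the scaling. With library totals in place of TMM the median log2 fold change of all genes moved from 0.01 to -0.25 and the split became 6647 higher in eyecup and 9004 higher in retina. With upper-quartile factors the median was -0.17 and the split 7003 to 8568. On the log2 scale of the deposited length-scaled values plus 1 the median was -0.51 and the split 5407 to 10574. The 4-fold split, eyecup to retina, became 2589 to 2045 with library totals and 2674 to 1927 with upper-quartile factors. With limma voom it was 2781 to 1289.

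The largest differences lay on the eyecup side. A fold change of 16-fold or more was estimated for 1462 genes higher in eyecup and 18 higher in retina. At 10 CPM or more in every eyecup and under 1 CPM in every retina there were 283 genes, and 0 genes showed the reverse. At 1 CPM or more in all libraries of one tissue and under 1 CPM in all of the other, 1085 genes were on the eyecup side and 380 on the retina side. A further 12782 genes had 1 CPM or more in all 14 libraries. Among the abundant genes that were not called, the lncRNA Malat1 had 2033 to 2501 CPM in eyecup and 1864 to 3419 CPM in retina, overlapping ranges, though it was called higher in retina with library totals or upper-quartile factors.

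**Figure D1:**
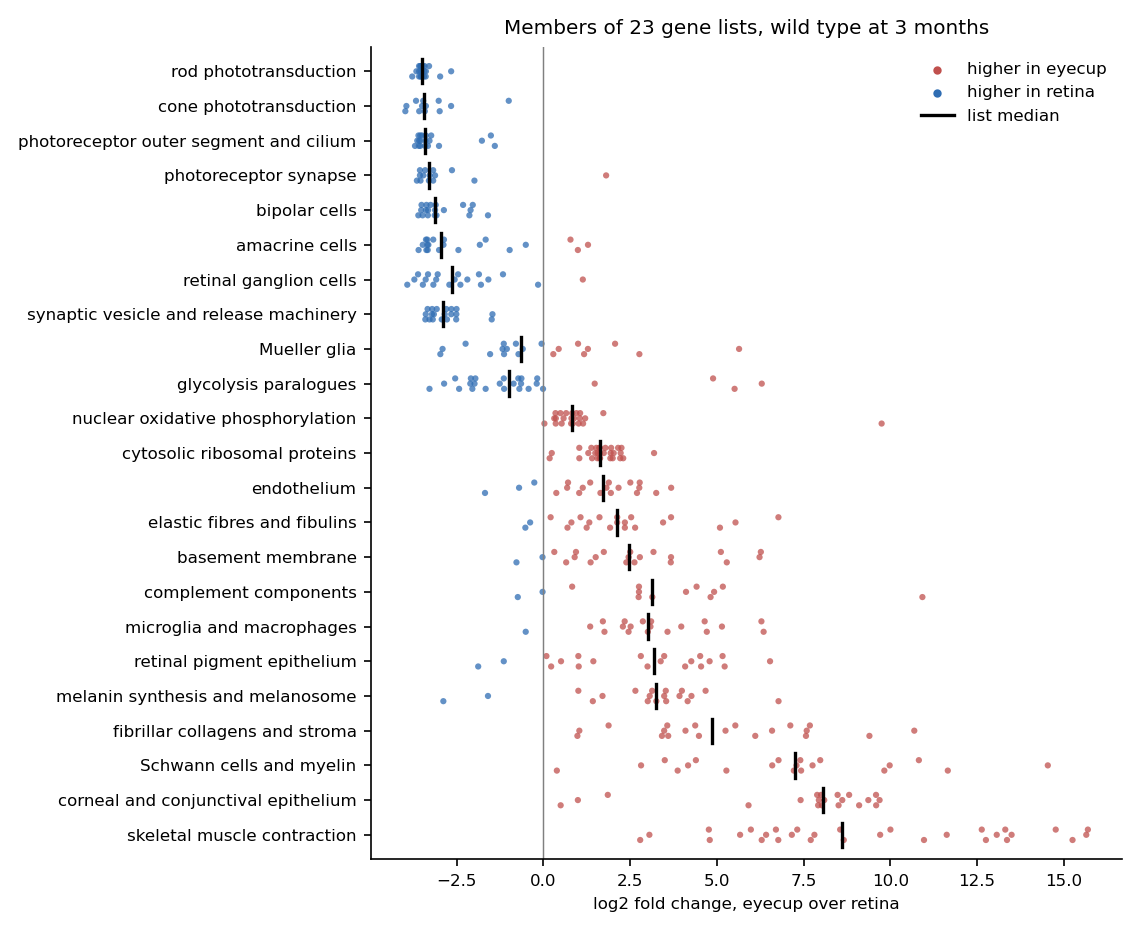
Log2 fold change of eyecup over retina (x axis) for each tested member of 23 gene lists (rows), 1 point per gene, coloured by direction, with the list median as a black bar. Medians of the rod, cone, bipolar, amacrine and ganglion cell lists lie between -3.51 and -2.63, while the muscle, corneal and myelin medians lie between 7.26 and 8.61.

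Rod phototransduction genes were all higher in retina. Each of the 20 members was called at least 4-fold, with a median log2 fold change of -3.51 beside 0.01 over all genes. Gnat1 had 10780, 11809 and 12182 CPM as the lowest, median and highest retina and 184, 1099 and 1819 CPM as the lowest, median and highest eyecup. The retinas lay close together, the eyecups were spread widely, and the groups did not overlap. The log2 fold change of Gnat1 was -3.55 ± 0.43 (adjusted p = 2.28e-06). Rcvrn, the calcium sensor recoverin, had the largest difference of the list, -3.78 ± 0.40. The smallest belonged to Gnb1, a G-protein beta subunit used by many cell types, at -2.66 ± 0.15.

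Cone genes had a similar median, -3.44, with 12 of 12 higher in retina and 11 at least 4-fold. Opn1mw, the middle-wavelength opsin, had 109, 112 and 124 CPM in retina and 1.6, 6.9 and 15.3 CPM in eyecup (-3.98 ± 0.37, adjusted p = 1.21e-07). Opn1sw, the short-wavelength opsin, differed by -3.02 ± 0.43 and the cone arrestin Arr3 by -3.39 ± 0.48. The member short of a 4-fold call was Slc24a2, a cation exchanger that other neurons also use, with 82.1 to 116 CPM in retina and 49.2 to 63.1 CPM in eyecup. Outer segment and cilium genes were higher in retina in 19 of 19 cases, 16 of them at least 4-fold, and the others were Prom1, Rpgr and Cep290, at -1.40, -1.51 and -1.77. These 3 encode membrane and cilium proteins with uses outside photoreceptors.

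Among 14 photoreceptor synapse genes 13 were higher in retina, 12 at least 4-fold, including the vesicular glutamate transporter Slc17a7 (-3.65 ± 0.43). Dag1, the matrix receptor dystroglycan, was higher in eyecup (1.81 ± 0.05). Of 14 photoreceptor transcription factors 13 were higher in retina and 8 at least 4-fold. Crx differed by -3.61 ± 0.47 and the rod-specifying factor Nrl by -3.59 ± 0.43. Otx2, which pigment epithelium also uses, had 38.4, 52.7 and 59.7 CPM in eyecup and 179, 189 and 194 CPM in retina (-1.88 ± 0.09). Prdm1, a repressor that epithelial and immune cells also use, was at least 4-fold higher in eyecup (2.27 ± 0.09).

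Promoters are shown for photoreceptor genes because all members of these lists were higher in retina. RefSeq promoters (GRCm38.p6) were matched for 33 of the 50 distinct members of the rod, cone and outer segment lists. The letters TAATCC, a core bound by CRX, were searched on both strands in the 250 bases before the start site and occurred in 10 of the 33 (30.3%) and in 6% of all 16703 promoters. It also occurred in 21.4% of 14 melanosome and 18.2% of 11 corneal promoters. Of the other motifs searched in the 33, on both strands, TATAAA occurred in 24.2% (all promoters 9.9%), TGANTCA, bound by AP-1, in 18.2% (5.9%) and TGCTGAC, bound by NRL, in 6.1% (3.6%). The 150 bases before the start site are given 5′ to 3′ on the gene's strand for 4 members with a match in them, with the match in capitals, GGATTA being the same letters on the opposite strand. They are chr1:87803530-87803679 (Sag, plus strand), chr3:122044310-122044459 (Abca4, plus strand), chr8:95306586-95306735 (Cngb1, minus strand) and chr11:69237023-69237172 (Gucy2e, minus strand).
Sag: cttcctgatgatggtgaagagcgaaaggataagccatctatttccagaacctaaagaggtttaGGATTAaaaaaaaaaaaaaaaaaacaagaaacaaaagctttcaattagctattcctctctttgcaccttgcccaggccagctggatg
Abca4: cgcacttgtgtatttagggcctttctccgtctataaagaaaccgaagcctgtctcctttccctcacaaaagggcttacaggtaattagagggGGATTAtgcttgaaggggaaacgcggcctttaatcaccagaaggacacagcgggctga
Cngb1: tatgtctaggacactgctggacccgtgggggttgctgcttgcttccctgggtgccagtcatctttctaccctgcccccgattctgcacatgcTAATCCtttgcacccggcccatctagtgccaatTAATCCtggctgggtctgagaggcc
Gucy2e: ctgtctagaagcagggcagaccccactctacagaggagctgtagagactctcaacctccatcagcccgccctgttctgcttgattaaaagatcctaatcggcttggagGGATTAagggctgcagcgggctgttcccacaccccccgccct
Sag encodes rod arrestin and differed by -3.39 ± 0.39. Abca4, a retinoid transporter of the outer segment, differed by -3.23 ± 0.28, Cngb1, a subunit of the rod channel, by -3.54 ± 0.42, and Gucy2e, a guanylate cyclase, by -3.50 ± 0.40. A match describes the letters and is not a measured binding site.

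Inner retinal neurons were also higher in retina, with more exceptions. All 19 bipolar genes were called higher in retina, 15 at least 4-fold (median -3.13). Grm6, the glutamate receptor of ON bipolar cells, had 143, 159 and 171 CPM in retina and 2.55, 18.9 and 26.6 CPM in eyecup (-3.25 ± 0.39). Trpm1, the channel it controls, differed by -1.60 ± 0.08. Of 20 amacrine genes 17 were higher in retina and 13 at least 4-fold. Gad1, which makes GABA, differed by -3.38 ± 0.45 and the glycine transporter Slc6a5 by -3.70 ± 0.34. Pax6, a factor that corneal epithelium also uses, was higher in eyecup, with 434, 499 and 546 CPM against 237, 247 and 267 CPM in retina (1.00 ± 0.05).

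Of 20 ganglion cell genes 19 were higher in retina and 13 at least 4-fold (median -2.63). Slc17a6, their vesicular glutamate transporter, had 62.8, 71.7 and 78.8 CPM in retina and 0.958, 6.54 and 11.7 CPM in eyecup (-3.47 ± 0.37). Rbpms, a common ganglion cell marker, had overlapping ranges, 30.7 to 36.1 CPM in retina and 26.4 to 33.6 CPM in eyecup (-0.15 ± 0.06, adjusted p = 0.0246). The call was lost under 7 alternatives, at adjusted p = 0.0522 to 0.0823, among them leaving out eyecup library 3, 7 or 9, limma voom and the replicate block. Horizontal cell genes split into 7 higher in retina and 4 higher in eyecup (median -0.93), with the connexin Gja10 at -3.67 ± 0.34 and the broadly used tropomyosin Tpm3 at 2.79 ± 0.07. Synaptic vesicle genes were higher in retina in 20 of 20 cases, 18 at least 4-fold. Snap25, a component of the fusion machinery, had 1102, 1163 and 1275 CPM in retina and 26.4, 143 and 233 CPM in eyecup (-3.19 ± 0.41).

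Retinal transcripts were present in every eyecup, at levels that differed between the 6 libraries. The median level of the 20 rod genes as a share of the retina mean was 1.77% in library 3, 3.61% in library 9, 9.47% in library 5, 9.98% in library 2, 13.2% in library 6 and 15.4% in library 7. The cone and bipolar lists put the eyecups in the same order, from 1.95% to 15.7% and from 3.25% to 18.5%. The amacrine list was instead lowest in library 9 (6.76%, against 8.63% in library 3). These shares used only members with 10 CPM or more in retina. For the horizontal cell list these were 6 of its 11 tested genes, and their median lay between 103% and 137%, highest in library 3. Of 1085 genes called at least 4-fold higher in retina with a mean of 10 CPM or more there, 836 (77.1%) had their lowest eyecup level in library 3 and 865 (79.7%) their highest in library 7. The lowest mean eyecup level among these 1085 genes was 2.58% of the retina level, so that 0 genes were under 1%, while the upper end is fixed by the 4-fold rule. Of 1949 genes called on the eyecup side by the same rule, 418 had a retina level under 1% of the eyecup level.

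**Figure D2:**
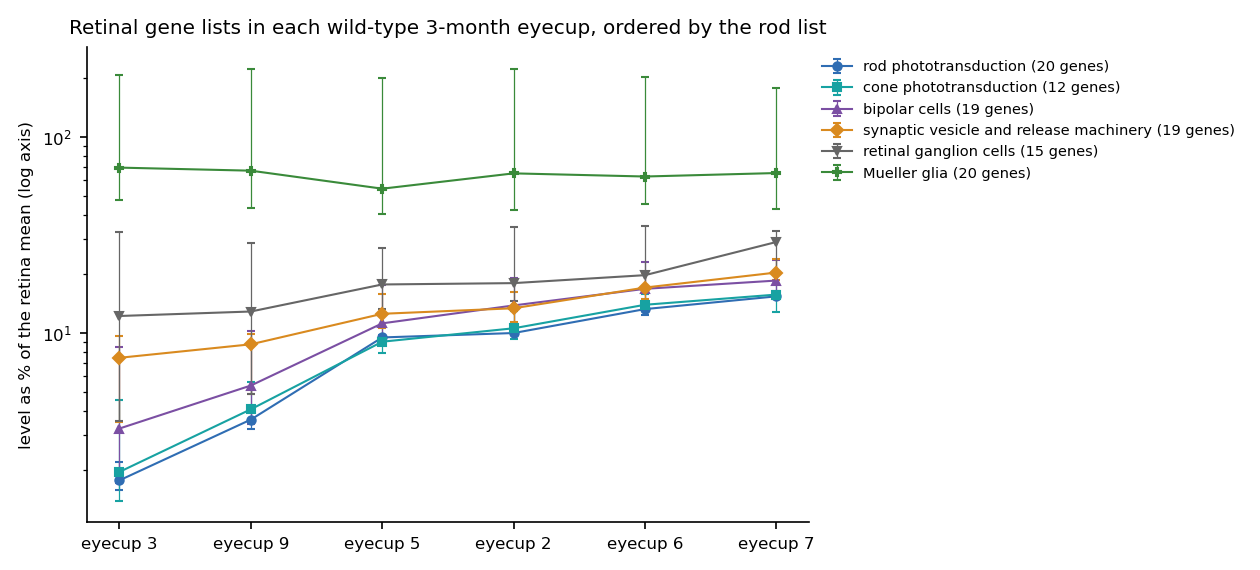
Median level of 6 retinal gene lists in each wild-type 3-month eyecup as a percent of the retina mean (y axis, log scale), with bars from the lower to the upper quartile over genes and eyecups ordered by the rod list. The rod list runs from 1.77% in eyecup 3 to 15.4% in eyecup 7, while the Mueller glia list lies between 54.5% and 69.8% in all 6.

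This spread was much wider in eyecup than in retina. Rod genes had a median standard deviation of log2 CPM of 1.22 over the eyecups and 0.10 over the retinas, against 0.19 and 0.14 over all genes tested. Rod genes took 0.14% to 1.03% of the counts of an eyecup and 7.39% to 8.09% of those of a retina. The part that retinal tissue in the eyecup samples had in these levels was not tested. In bulk tissue, fewer cells of a type and less RNA per cell cannot be told apart.

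Mueller glia genes did not follow the neurons. Of 20 members 11 were higher in retina, 8 higher in eyecup and 1 not called, with 2 at least 4-fold in each direction (median -0.66). Glul, glutamine synthetase, had 2263, 2611 and 2848 CPM in retina and 1165, 1249 and 1335 CPM in eyecup (-1.05 ± 0.06). The potassium channel gene Kcnj10 had overlapping ranges and was not called (-0.05 ± 0.07), though it was called higher in retina under the other scalings that lowered the median of all genes. Gfap, the filament protein of astrocytes and reactive glia, had 545, 616 and 872 CPM in eyecup and 11.3, 13.8 and 16.6 CPM in retina (5.64 ± 0.13, adjusted p = 7.55e-16). The notch target Hes1 was also at least 4-fold higher in eyecup (2.77 ± 0.10).

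**Figure D3:**
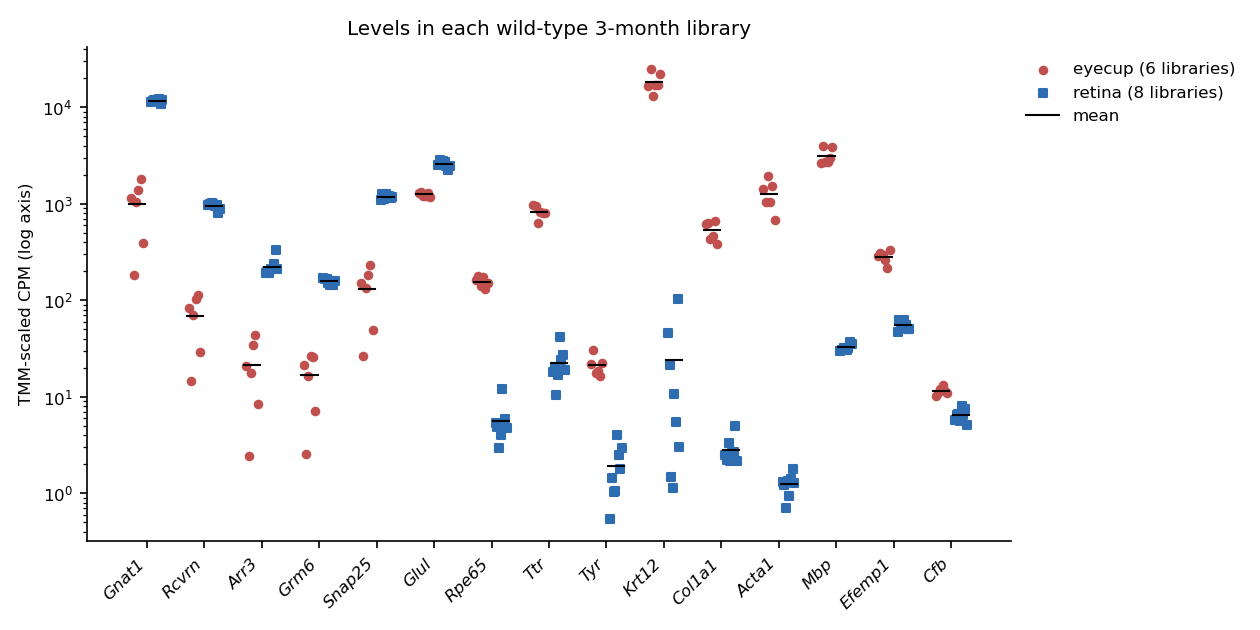
TMM-scaled CPM (y axis, log scale) of 15 genes in each wild-type 3-month library, eyecups as circles and retinas as squares, with the group mean as a black line. Gnat1 spreads from 184 to 1819 CPM over the eyecups and stays between 10780 and 12182 CPM over the retinas, while Krt12 spreads from 1.13 to 102 CPM over the retinas.

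Pigment epithelium genes were mostly higher in eyecup. Of 20 members 17 were called higher in eyecup, 12 at least 4-fold, and 2 higher in retina, with a median of 3.19. Rpe65 had 132, 156 and 177 CPM in eyecup and 2.97, 5.03 and 12 CPM in retina (4.79 ± 0.23, adjusted p = 6.81e-11). Ttr, a carrier of retinol and thyroid hormone, had 632, 812 and 972 CPM in eyecup and 10.5, 19.7 and 42 CPM in retina (5.23 ± 0.26). Lrat and Rgr, which act in chromophore recycling, differed by 4.55 ± 0.26 and 4.52 ± 0.29. The 2 members higher in retina were Otx2 and Rlbp1, a retinaldehyde carrier shared with Mueller glia (-1.14 ± 0.07). Rrh, an opsin relative, was not called (0.09 ± 0.08), and its sign changed with the scaling.

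Melanin and melanosome genes were higher in eyecup in 17 of 19 tested cases, 14 of them at least 4-fold (median 3.26). Tyr, the first enzyme of melanin synthesis, had 16.6, 20 and 30.3 CPM in eyecup and 0.542, 1.6 and 4.03 CPM in retina (3.53 ± 0.32). Mc1r, the melanocortin receptor, was higher in retina (-2.88 ± 0.31), as was Trpm1, which melanocytes share with bipolar cells. Pigment genes varied between retinas. Their median level as a share of the eyecup mean was 19.1% in retina library 5 and 3.81% to 12.9% in the other 7, and that of the pigment epithelium list 17.5% and 4.97% to 12.5%. The part of adhering pigment cells in this was not tested.

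Promoters of melanosome genes are shown because the list held members of both directions. CATGTG, a core bound by MITF, occurred on either strand in the 250 bases before the start site of 8 of 14 matched promoters (57.1%; the list has 20 members) and of 9.6% of all promoters. It was in 12.1% of the photoreceptor promoters and 7.7% of 26 muscle promoters. The 150 bases before the start site are given as above for chr14:118052247-118052396 (Dct, minus strand), chr4:80834063-80834212 (Tyrp1, plus strand), chr7:64153685-64153834 (Trpm1, plus strand) and chr3:50443614-50443763 (Slc7a11, minus strand), with CATGTG in capitals.
Dct: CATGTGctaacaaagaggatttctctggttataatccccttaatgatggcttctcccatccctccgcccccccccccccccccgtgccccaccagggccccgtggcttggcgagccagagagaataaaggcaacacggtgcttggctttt
Tyrp1: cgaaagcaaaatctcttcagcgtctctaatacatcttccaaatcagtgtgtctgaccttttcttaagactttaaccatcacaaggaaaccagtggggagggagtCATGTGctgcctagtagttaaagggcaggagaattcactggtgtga
Trpm1: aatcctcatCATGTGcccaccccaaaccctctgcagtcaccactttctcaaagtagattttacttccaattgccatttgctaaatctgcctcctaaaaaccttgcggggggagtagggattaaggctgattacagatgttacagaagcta
Slc7a11: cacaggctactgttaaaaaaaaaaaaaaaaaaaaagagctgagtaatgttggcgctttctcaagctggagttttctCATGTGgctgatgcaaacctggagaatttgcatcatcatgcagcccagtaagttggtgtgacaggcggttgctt
Dct and Tyrp1, enzymes of the melanosome, differed by 3.07 ± 0.45 and 3.26 ± 0.30, and the cystine transporter Slc7a11 by 1.71 ± 0.18. Trpm1 holds the same letters and differed in the other direction.

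Corneal and conjunctival epithelium genes were abundant in eyecup, although the label reads posterior eyecup. All 20 members were higher in eyecup, 17 at least 4-fold (median 8.06), and together they took 4.11% to 5.95% of the counts of an eyecup and 0.04% to 0.08% of those of a retina. Krt12, the keratin that defines corneal epithelium, had 13050, 17081 and 24652 CPM in eyecup and 1.13, 8.07 and 102 CPM in retina (9.59 ± 1.13, adjusted p = 1.62e-06). Krt5, a basal keratin, and Aldh3a1, a corneal crystallin, differed by 9.59 ± 0.91 and 9.69 ± 0.86. Without retina library 7 these log2 fold changes became 10.46 for Krt12, 10.49 for Krt5 and 10.46 for Aldh3a1. Each of these 3 genes had its highest retina level in library 7, where the list reached 1.23% of its eyecup level against 0.165% to 0.29% in the other retinas. Abundant genes outside the list behaved alike, including Gsto1, a glutathione transferase (7.30 ± 0.42), and Muc4, a membrane mucin (7.92 ± 0.58, or 8.64 without retina library 7). Of 20 listed genes of eyelid epidermis and surface defence 13 were tested. Of these 10 were higher in eyecup, 9 at least 4-fold, and 1 was higher in retina. Another 2 were not called, among them Krt10, a keratin of skin (-0.19 ± 0.23). The rest of the 20 were absent from the deposited data or did not pass the expression filter. Because a gene can pass it through the eyecups alone, the 13 may not stand for the whole list.

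Skeletal muscle contraction genes were at least 4-fold higher in eyecup in 30 of 30 cases, with a median of 8.61. Acta1, skeletal alpha-actin, had 677, 1242 and 1922 CPM in eyecup and 0.702, 1.29 and 1.77 CPM in retina (10.01 ± 0.28, adjusted p = 5e-14). Ckm, muscle creatine kinase, differed by 9.71 ± 0.34. Myosin heavy chain genes are close paralogues, and reads may be split between them. Myh3, an embryonic form that eye muscles retain, had 509 to 1186 CPM in eyecup and 11 reads in all retinas together (13.32 ± 0.28). Myh13, the form particular to eye muscles, had 16.2, 153 and 488 CPM in eyecup and 3 reads over the retinas. Myh8, a perinatal form, had 26.7 to 107 CPM in eyecup and 0 reads in the retinas, at least 3473-fold higher when the retina group is set at a floor of 3 counts. Acta1, Ckm, Myh13 and Myh8 were all highest in eyecup library 5.

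Muscle promoters are shown because the list moved as a whole. CAGCTG, an E-box bound by MyoD, occurred on either strand in the 250 bases before the start site of 10 of 26 matched promoters (38.5%; the list has 30 members) and of 12.7% of all promoters. It was in 27.3% of the corneal, 26.7% of 15 synaptic vesicle and 21.4% of the melanosome promoters, and in 16.5% and 15.7% of those of all genes at least 4-fold higher in eyecup and in retina. Of the other motifs searched in the 26, TATAAA occurred in 30.8% (all promoters 9.9%) and TGCTGAC in 11.5% (3.6%). TAATCC and TGANTCA were each in 3.8% (6% and 5.9%). The 250 bases before the start site are given for chr7:126463074-126463323 (Atp2a1), chr8:123894776-123895025 (Acta1) and chr1:172219896-172220145 (Casq1), all on the minus strand, with CAGCTG in capitals.
Atp2a1: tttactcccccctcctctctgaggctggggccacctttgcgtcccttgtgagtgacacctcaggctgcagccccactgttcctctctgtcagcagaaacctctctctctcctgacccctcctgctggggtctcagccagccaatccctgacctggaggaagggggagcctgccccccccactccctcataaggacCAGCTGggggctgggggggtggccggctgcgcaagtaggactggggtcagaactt
Acta1: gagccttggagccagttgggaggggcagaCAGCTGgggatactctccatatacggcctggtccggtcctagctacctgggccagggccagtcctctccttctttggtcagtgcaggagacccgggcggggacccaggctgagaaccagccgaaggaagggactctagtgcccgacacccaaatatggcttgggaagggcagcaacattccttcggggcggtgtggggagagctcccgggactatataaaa
Casq1: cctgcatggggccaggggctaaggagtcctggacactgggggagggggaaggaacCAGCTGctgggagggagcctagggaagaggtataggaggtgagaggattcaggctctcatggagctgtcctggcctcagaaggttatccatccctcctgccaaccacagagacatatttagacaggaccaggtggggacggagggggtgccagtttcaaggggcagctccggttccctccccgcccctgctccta
Atp2a1, the calcium pump of fast fibres, differed by 10.97 ± 0.37, and Casq1, a calcium store protein, by 6.42 ± 0.26.

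Myelin genes were higher in eyecup, 19 of 20 at least 4-fold (median 7.26). Mbp, a structural protein of the myelin sheath, had 2642, 2843 and 3982 CPM in eyecup and 29.9, 32.1 and 36.6 CPM in retina, without overlap (6.60 ± 0.12). Mobp, an oligodendrocyte gene, had 130, 150 and 191 CPM in eyecup and 0 reads in the retinas, at least 7860-fold higher at the floor of 3 counts, and Olig2 was at least 597-fold higher.

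Stroma genes were higher in eyecup in 20 of 20 cases, 17 at least 4-fold (median 4.87). Col1a1, the main fibrillar collagen, had 379, 539 and 670 CPM in eyecup and 2.18, 2.56 and 4.95 CPM in retina (7.57 ± 0.21), and the corneal proteoglycan Kera differed by 10.69 ± 0.35 with 9 reads in all retinas together, and by 11.44 without retina library 1. Cartilage and tendon genes did not move one way, with 6 higher in eyecup and 7 in retina of 14 tested. The tendon gene Tnmd was higher in eyecup at 8.36, and Col2a1, a collagen of cartilage and vitreous, higher in retina (-2.92 ± 0.23). Smooth muscle and pericyte genes were higher in eyecup in 13 of 15 cases, 7 at least 4-fold, with Acta2 at 4.21 ± 0.17.

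Endothelial genes were higher in eyecup in 17 of 20 cases, 7 at least 4-fold (median 1.73). The junction gene Cdh5 differed by 2.78 ± 0.14 and Plvap, which marks fenestrated vessels, by 2.51 ± 0.07. Kdr, the main receptor of VEGF, was higher in retina, with 166, 194 and 205 CPM against 34, 64.2 and 78.7 CPM in eyecup (-1.68 ± 0.16), as was the receptor Flt1 (-0.70 ± 0.11). Of 19 VEGF and angiopoietin genes 13 were higher in eyecup and 5 in retina, among the latter Vegfa (-0.67 ± 0.09) and Hif1a (-1.74 ± 0.09). Egln3, an oxygen sensor that HIF induces, was higher in eyecup (6.89 ± 0.18).

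Most tested immune cell genes were higher in eyecup. Of 19 microglia and macrophage genes 18 were higher there, 14 at least 4-fold (median 3.01). Csf1r, the receptor these cells depend on, had 56.1, 60.6 and 83.4 CPM in eyecup and 10.4, 11.2 and 11.6 CPM in retina (2.52 ± 0.08). Lyve1, a marker of some macrophages and of lymphatics, was higher in retina (-0.51), a call lost with the 10 libraries of shared numbers. Of 20 listed mast cell and lymphocyte genes only 9 were tested. All 9 were higher in eyecup, including the receptor gene Kit (4.68 ± 0.09), which is not particular to mast cells. The rest were absent from the deposited data or did not pass the expression filter. A gene can pass that filter through the eyecups alone, so the 9 may not stand for the whole list. Adipocyte genes were higher in 17 of 18 cases, 14 at least 4-fold, with Adipoq at 6.43 ± 0.54.

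Efemp1, the gene altered in the knock-in mice, had 216, 289 and 332 CPM in wild-type eyecup and 46.9, 55.8 and 62.7 CPM in retina. The groups did not overlap, and the difference of 2.35 ± 0.09 (adjusted p = 1.26e-13) was called at least 4-fold. Of 21 elastic fibre and fibulin genes 18 were higher in eyecup, 9 at least 4-fold, with Fbln5 at 3.68 ± 0.12. Basement membrane genes were higher in 19 of 21 cases and matrix proteases and inhibitors in 18 of 22. Timp3, an inhibitor of matrix proteases altered in another macular dystrophy, had 510, 560 and 700 CPM in eyecup and 93.5, 104 and 126 CPM in retina (2.44 ± 0.08). Mmp9, a gelatinase, was at least 4-fold higher in retina (-2.40).

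Of 20 complement components listed 13 were tested, and 11 of these were higher in eyecup, 10 at least 4-fold (median 3.14). The rest were absent from the deposited data or did not pass the expression filter. Because a gene can pass it through the eyecups alone, the 13 may not stand for the whole list. C3, the central component, had 47.8, 70 and 97.1 CPM in eyecup and 1.62, 3.41 and 4.72 CPM in retina (4.42 ± 0.21), and C4b differed by 4.11 ± 0.15. Cfb, the protease of the alternative pathway named in the title of the series, was higher in eyecup by much less, with 10.3, 11.2 and 13.2 CPM against 5.1, 6.46 and 8.06 CPM (0.83 ± 0.10, adjusted p = 4.56e-07). Cfp, which stabilises the alternative pathway's convertase, was higher in retina (-0.74 ± 0.11). Regulators and receptors were split, 9 higher in eyecup and 8 in retina. Cd55, a membrane-bound inhibitor of the convertases, was higher in eyecup (5.00 ± 0.13), while the protease Cfi (-3.28 ± 0.26) and Vtn, vitronectin (-2.36 ± 0.09), were higher in retina.

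Retinoid genes were split. Of 22 members 13 were higher in eyecup and 7 in retina. The photoreceptor genes Rbp3, a retinoid carrier between the cells, and Rdh8, a retinol dehydrogenase, differed by -3.70 ± 0.46 and -3.62 ± 0.38, and the pigment epithelium dehydrogenase Rdh5 by 4.26 ± 0.16. Of 29 Wnt pathway genes 20 were higher in eyecup, 15 at least 4-fold, led by the ligands Wnt7b (8.47 ± 0.32, or 9.22 without retina library 7) and Wnt4 (7.83 ± 0.22). Another 6 were higher in retina, among them Ndp, the norrin ligand of retinal vessels (-1.81). The ligand Wnt9b, outside the list and not among the named genes examined below, was estimated at 16-fold or more higher in retina. Of 28 TGF-beta and BMP genes 20 were higher in eyecup and 5 in retina. Tgfbi, a corneal matrix protein, differed by 8.96 ± 0.30 and the ligand Tgfb2 by -0.55 ± 0.07.

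Glycolysis genes were higher in retina in 21 of 26 cases, and the 4 higher in eyecup were Pfkm, Pgam2, Eno3 and Slc2a4, forms used by muscle. Of 19 testable pairs of paralogues, each listed with the form more typical of neurons first where there is one, 10 had the first higher in retina and the second higher in eyecup, 0 had the reverse, 8 differed in one direction and 1 had a member that was not called. On the deposited length-scaled values, Ckb and Ckm, brain and muscle creatine kinase, had means of 2098 and 2.14 in retina and 409 and 1144 in eyecup. The enolases Eno2 and Eno3 had means of 617 and 34.5 in retina and 42.5 and 695 in eyecup. Their log2 fold changes were -3.28 ± 0.32 and 4.89 ± 0.21. Outside metabolism, the splicing repressors Ptbp2 and Ptbp1 split as well, at -1.54 ± 0.10 and 1.56 ± 0.05.

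**Figure D4:**
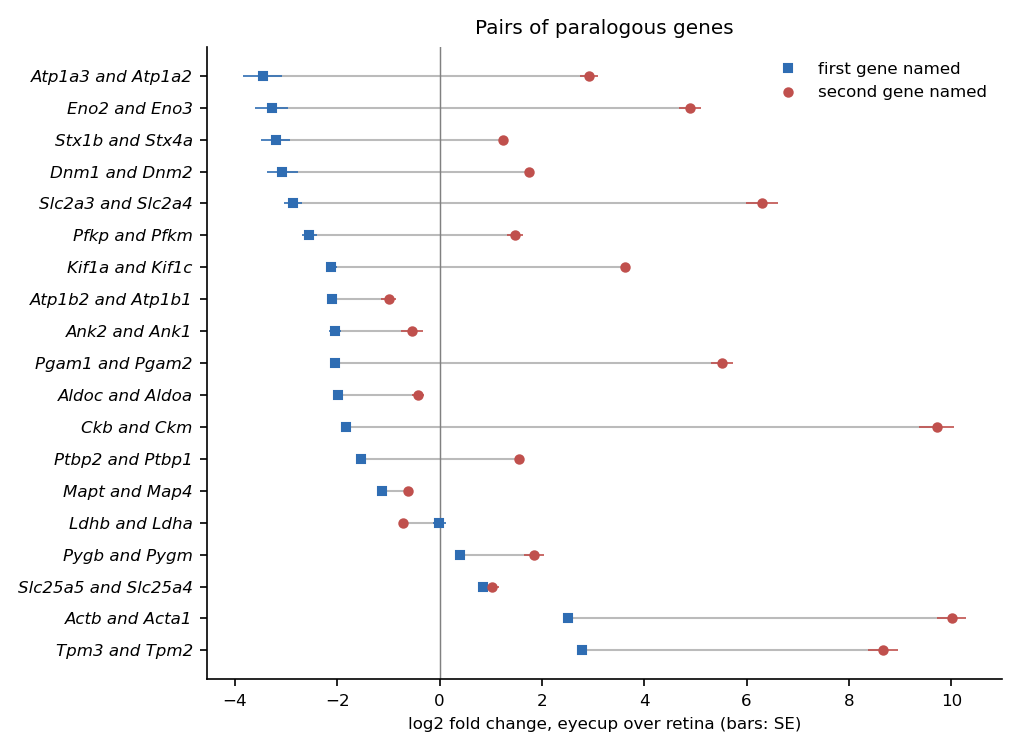
Log2 fold change of eyecup over retina (x axis, bars are SE) for both members of 19 paralogue pairs (rows), the first named gene as a square and the second as a circle, joined by a line. In 10 pairs the line crosses 0 from a member higher in retina to one higher in eyecup, the widest being Ckb and Ckm at -1.84 and 9.71.

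Genes of respiration and translation were mostly higher in eyecup. How far this held depended on the scaling, most of all for the nuclear genes of respiration. Of 22 nuclear oxidative phosphorylation genes 21 were higher in eyecup (median 0.82, highest 9.75), 1 of them at least 4-fold. On the log2 length-scaled values 11 were higher in eyecup and 5 in retina, with 6 members changing sign. All 9 tested mitochondrially encoded genes were higher in eyecup (median 1.09), with mt-Co1 at 1.00 ± 0.11, and 6 remained called on that scale. Cytosolic ribosomal protein genes were higher in eyecup in 28 of 29 cases, 6 at least 4-fold (median 1.63), and in 27 on that scale, with 2 then higher in retina. Housekeeping genes were not stable references between these tissues: 13 were higher in eyecup and 6 in retina. Their split was 11 to 7 with library totals and 8 to 9 on the log2 length-scaled values, where 4 changed sign. Actb differed by 2.51 ± 0.06, Gapdh by -0.69 ± 0.10 and Hprt by -1.05 ± 0.06.

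Genes on the 2 sides also differed in structure, given here without a test. The median genomic span of protein-coding genes at least 4-fold higher in retina was 37911 bases, against 21385 for those higher in eyecup and 24767 for all tested. Long intergenic RNAs were at least 4-fold higher in retina in 19.8% of tested cases and in eyecup in 9.5%, whereas for protein-coding genes the shares were 8.5% and 17.8%.

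The eyecup side recurred in the other 5 conditions, each measured in its own libraries. Of the 2885 genes at least 4-fold higher in wild-type 3-month eyecup, 91.8% were called so in 3-month knock-in mice, where 16.7% of all genes were. In wild type at 9 and 17 months the shares were 85.9% (all genes 14.9%) and 83.1% (all genes 14.7%), and in knock-in at those ages 88.2% (15.4%) and 85.7% (15%). Of the 1636 genes of the retina side, 74.2% were called so in 3-month knock-in mice (all genes 8.58%). At 9 and 17 months these shares were 1.71% (all genes 0.209%) and 2.14% (0.357%) in wild type and 8.56% (1.08%) and 3.97% (0.567%) in knock-in. The direction of the retina-side genes was the same in 1580 of 1580 tested genes in 3-month knock-in mice, in 1606 of 1606 and 1598 of 1599 in wild type at 9 and 17 months, and in 1596 of 1596 and 1617 of 1618 in knock-in at those ages. The rod list in eyecup, as a share of the retina mean of the same condition, had a median of 9.85% in wild type at 3 months (highest 15.7%) and 11.3% in knock-in at 3 months (highest 22.9%). At 9 and 17 months the medians were 18.6% and 13.7% in wild type (highest 51.9% and 45.4%) and 19.4% and 5.6% in knock-in (highest 29.6% and 38.7%). The lowest eyecup was at 1.79% in wild type and 4.68% in knock-in at 3 months. At 9 and 17 months it was at 3.06% and 1.31% in wild type and at 0.473% and 0.585% in knock-in. The part of these levels and of their spread in the lost calls was not tested.

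**Figure D5:**
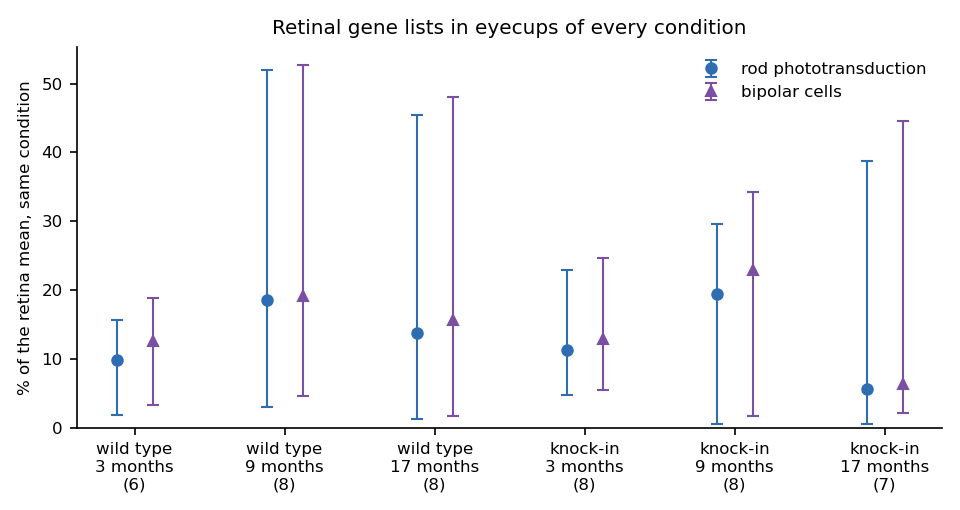
Median level of the rod list (circles) and bipolar list (triangles) in eyecups as a percent of the retina mean of the same condition (y axis), for 6 conditions with the number of eyecups in brackets. Points are the median eyecup and bars run from the lowest to the highest, which for the rod list is 1.79% to 15.7% in wild type at 3 months and 3.06% to 51.9% in wild type at 9 months.

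Whether the tissue difference itself changed was tested with all 93 libraries. From 3 to 17 months in wild type it changed for 847 of 19210 genes (4.41%), 398 shifting toward eyecup (2.07%) and 449 toward retina (2.34%). Number and split depended on the method, with 302 and 583 under relative log expression (RLE) size factors, 1203 and 923 with limma voom, and 27 and 93 with a replicate block in fewer libraries. The adhesion gene Vcam1 went from 23.8 to 50.5 CPM in eyecup and from 13.2 to 12.7 CPM in retina, a change in the difference of 1.15 ± 0.16 (adjusted p = 2.58e-07). A2m, a broad protease inhibitor, went from 539 to 170.7 CPM in eyecup and from 12.8 to 26.5 CPM in retina (-2.71 ± 0.30, adjusted p = 3.60e-10). Between knock-in and wild type at 3 months the difference changed for 1580 genes (8.22%), 640 toward eyecup (3.33%) and 940 toward retina (4.89%). Here the split was 803 to 919 under RLE size factors, 978 to 985 in a fit of only the 4 groups compared, 1752 to 1566 with limma voom and 338 to 852 with the replicate block. The imprinted factor Plagl1 had 19.5 CPM in wild-type and 8.13 CPM in knock-in eyecup, and 23 and 25.2 CPM in retina (-1.40 ± 0.23, adjusted p = 0.000437). For Efemp1 the change was -0.11 ± 0.17 with age (adjusted p = 0.739) and -0.07 ± 0.17 with genotype (adjusted p = 0.863), and for Cfb 0.73 ± 0.24 (adjusted p = 0.0566) and 0.03 ± 0.24 (adjusted p = 0.967).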

How the data were processed

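Messenger RNA was sequenced from eyecups and retinas; per the labels' protocols, RNA was column-purified with DNase treatment and made into stranded poly(A) libraries. The deposited tables give estimated counts per gene and a length-scaled score that the authors derived, scaled to one fixed sum over protein-coding genes; the build was GRCm38.p4 per the submitters' processing notes. The aligner and the counting program: not given in the sources used here. Of the deposited values 62.1% were whole, and counts were rounded. 1 column that matches no sample label was not used. edgeR 4.0.16 in R 4.3.3 fitted the 14 libraries (filterByExpr, TMM, robust quasi-likelihood; glmTreat for the 4-fold call) and, for changes of the tissue difference, all 93 libraries in 12 groups. The pipeline was also run on simulated data in which few genes changed, in both directions. That could not test the scaling of tissues in which most genes differ. limma 3.58.1, DESeq2 1.42.0, other scalings, no filter, a replicate block and leaving out libraries were alternatives.

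The members and lists were chosen with earlier results of these data known. Genes named are list or pair members, Efemp1 and Cfb, the most abundant and most different genes at least 4-fold apart, the most abundant uncalled genes, and those of smallest p in the tests of changing differences. Lists are described by counts and medians, with no test. Results for some genes are not reported here.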

Additional observations from a re-analysis of the deposited data

Results flagged for a closer look

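Among 109 named genes, each examined in both tissues, 24 flags marked a single library far from the rest of its group. The same library could be flagged for several genes. Chance flags about 1 in 20 combinations of gene and tissue. Over all members of the gene lists, 146 of 1497 combinations of gene and tissue held such a library. Retina library 7 was the highest retina for Krt12 (102 CPM), Krt5 (66.3), Aldh3a1 (56.3), Gsto1 (249), Muc4 (56.2), Wnt7b (1.4), Col1a1 (4.95), Kit (9.08) and Arr3 (334). It was the lowest retina for Gnb1 (4240 CPM), Sag (2300) and Slc17a7 (1590). Retina library 5 was highest for Rpe65 (12 CPM), Rgr (40.1) and Ndp (8.27), and retina library 6 lowest for Flt1 (81.2) and Slc24a2 (82.1).

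Eyecup library 3 was the highest eyecup for C4b (406 CPM), Csf1r (83.4) and Dct (507) and the lowest for Prom1 (177). Eyecup library 5 was highest for Acta2 (119 CPM), and eyecup library 9 for Hes1 (123) and Muc4 (4390).

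The tissue difference changed between conditions by a test of the difference itself (edgeR). From 3 to 17 months it changed by 1.15 for Vcam1 and -2.71 for A2m, and from wild type to knock-in at 3 months by -1.40 for Plagl1.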

How the results depend on the processing

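The number of genes called kept within 1.5 times of 15507 under every alternative run, and leaving out 1 library gave 15305 to 15585. Without eyecup library 3 and retina library 7, chosen after seeing the data, 15381 were called and 4326 at least 4-fold. The 4-fold count of 4521 ran from 4349 to 4718 when 1 library was left out. It became 8256 when tested against a log2 fold change of 1 and 1176 against 4. Same-numbered libraries of the 2 tissues did not deviate together (correlations from -0.054 to 0.020 over 8854 genes), so the numbers were not taken as pairs. With a replicate block over the 5 shared numbers, 14703 genes were called and 4086 at least 4-fold, against 14892 and 4125 in the same 10 libraries without the block. The count of genes whose tissue difference changed with age, 847, was 2126 with limma voom, 120 with the replicate block and 158 without the block in the same libraries, which are fewer. The count by genotype, 1580, was 3318 with limma voom, 1190 with the replicate block and 1452 without it. Of 112 named genes, Rrh changed sign, to -0.17 with library totals, -0.090 with upper-quartile factors and -0.44 on the log2 length-scaled values, and Lyve1 lost its call with the block and without it in the same 10 libraries (adjusted p = 0.0536 and 0.0607). Rbpms lost its call under 7 alternatives (0.0522 to 0.0823). Kcnj10, Malat1 and Krt10 gained calls, higher in retina, under 4, 3 and 1 alternatives.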
